A study of Mus musculus with 6 samples.

Results

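The splicing factor genes examined here are 70 protein-coding RefSeq genes on mm10: those with symbols that start with Srsf, Hnrnp, Snrp, Sf3a, Sf3b or Prpf, together with U2af1, U2af2, Zrsr1 and Sf1. A peak was counted as theirs when its midpoint lay within 1 kb of either end of such a gene, which gave 68 of the 42632 deposited peaks at 62 of the 70 genes. Accessibility was measured by bulk ATAC-seq, in which a transposase cuts and tags DNA that is open. The cells were LT-HSCs, the long-term stem cells of the blood, sorted as lineage-negative, Sca1+ cKit+ CD34- Flt3- cells from the marrow of C57BL/6 mice that were 10 to 16 weeks old. The 3 unconfined libraries came from cells kept in culture medium for 16 h. The 3 confined libraries came from cells kept for 13 h, left 0.5 h to attach to glass coated with fibronectin, held for 2 h beneath a coverslip on pillars of 5 µm, and then lifted off with a dissociation reagent. No genetic change or drug separates the groups, but attachment and lifting off were carried out only with confined cells and cannot be told apart from confinement. The labels do not say how many mice went into a library, so the spread between libraries may be partly technical.

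Splicing removes introns from RNA precursors in the spliceosome, a machine of small nuclear ribonucleoproteins (snRNPs) that assembles anew on each intron. U1 snRNP marks the 5′ splice site; SF1 reads the branch point and U2AF the 3′ splice site, after which U2 snRNP, with its SF3A and SF3B subcomplexes, takes over the branch point. PRPF proteins belong mainly to the U4/U6.U5 particle and to the complexes that activate it, while SR proteins and hnRNPs bind the transcript and favour or hinder the use of nearby sites. In human blood the genes SF3B1, SRSF2, U2AF1 and ZRSR2 are recurrently mutated in myelodysplastic syndromes and clonal haematopoiesis. Mouse Sf3b1, Srsf2 and U2af1, and Zrsr1 as the relative of ZRSR2 that the rule takes, were therefore described whatever their values.

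The accessible sites lay mostly at start sites. Of 59 peaks at genes with a strand and start site in the RefSeq promoter table (GRCm38.p6, the assembly also called mm10), 55 lay closest to the 5′ end and 4 to the 3′ end of the gene, and 47 covered an annotated start. The table held 61 of the 70 genes. In a window of 300 bases, 250 before the start and 50 after it, their median GC content was 60.0%, against 56.3% over 17492 protein-coding genes and 61.0% over the 9348 of these with a gene-end peak. The median ratio of observed to expected CpG was 0.913, against 0.577 and 0.766. For the 53 splicing factor genes in the table that had a peak, these medians were 60.0% and 0.9195.

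Short motifs were searched on both strands of the same windows, and matches may overlap. GGGCGG (GC box) occurred in 67.2% of the 61 windows, against 46.3% of all protein-coding windows and 65.5% of those with a gene-end peak. CCGGAAG, an ETS-type motif, occurred in 31.1% against 11.9% and 18.3%, and CCAAT in 50.8% against 39.2% and 39.2%. For the 53 splicing factor genes with a peak, the GC box, ETS-type and CCAAT shares were 69.8%, 34.0% and 49.1%. The ETS-type motif was found at 19 of the 61 genes, among them Sf3a1, Sf3a2, Sf3a3, Sf3b2, Sf3b3 and Sf3b6, subunits of the U2 particle. The NRF1 motif GCATGCG was found at 4 genes (6.56%, against 4.5% of all protein-coding windows and 6.64% of those with a gene-end peak). The CRE, spelled TGACGTCA, was found at 2 (3.28% against 2.33% and 3.43%). The TATA box, searched as TATAAA, was found at 7 (11.5% against 13.3% and 6.82%). For YY1 the letters AAGATGGCG were found at 2 (3.28% against 1.92% and 3.1%). A palindrome known from housekeeping promoters, CTCGCGAG, was found at 3 (4.92% against 1.31% and 2.0%). A match is a run of letters and was not tied to binding.

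The 250 bases before the annotated start of 5 genes are shown 5′ to 3′ on the coding strand, with matches to these motifs on either strand in capitals. Hnrnpa1 (chr15:103240147-103240396, plus strand) is shown as the gene whose 5′ peak fell, Sf1 (chr19:6363440-6363689, plus strand) as the gene with the tallest peak, Prpf40b (chr15:99294991-99295240, plus strand) as the gene whose ends gave opposite estimates, and Srsf2 (chr11:116853095-116853344, minus strand) and Sf3b1 (chr1:55027479-55027728, minus strand) for their place in blood disease. For Hnrnpa1, 196 of the 250 bases lie inside the peak, and for the other genes all 250 do.
Hnrnpa1: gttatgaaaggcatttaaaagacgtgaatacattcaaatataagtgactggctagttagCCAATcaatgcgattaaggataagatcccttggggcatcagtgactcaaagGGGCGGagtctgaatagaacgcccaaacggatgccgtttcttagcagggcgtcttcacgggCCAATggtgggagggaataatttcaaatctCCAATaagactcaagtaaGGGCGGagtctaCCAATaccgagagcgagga
Sf1: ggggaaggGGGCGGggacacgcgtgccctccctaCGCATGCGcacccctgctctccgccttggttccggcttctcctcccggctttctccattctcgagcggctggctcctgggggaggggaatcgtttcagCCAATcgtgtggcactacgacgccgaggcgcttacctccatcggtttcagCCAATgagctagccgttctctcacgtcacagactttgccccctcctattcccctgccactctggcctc
Prpf40b: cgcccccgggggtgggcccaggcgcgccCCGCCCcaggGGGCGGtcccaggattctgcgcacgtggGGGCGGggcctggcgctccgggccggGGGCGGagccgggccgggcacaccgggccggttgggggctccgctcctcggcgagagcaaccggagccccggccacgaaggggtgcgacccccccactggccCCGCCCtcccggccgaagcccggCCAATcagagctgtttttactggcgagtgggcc
Srsf2: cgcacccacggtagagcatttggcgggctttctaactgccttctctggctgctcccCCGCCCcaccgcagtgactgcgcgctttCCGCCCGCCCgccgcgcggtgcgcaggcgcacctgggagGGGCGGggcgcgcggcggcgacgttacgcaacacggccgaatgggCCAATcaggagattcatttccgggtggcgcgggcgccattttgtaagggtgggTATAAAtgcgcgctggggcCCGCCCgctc
Sf3b1: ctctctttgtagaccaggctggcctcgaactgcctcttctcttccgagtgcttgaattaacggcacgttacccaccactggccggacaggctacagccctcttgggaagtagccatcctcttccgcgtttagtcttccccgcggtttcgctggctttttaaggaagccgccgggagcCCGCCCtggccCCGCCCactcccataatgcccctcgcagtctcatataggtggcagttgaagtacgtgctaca
The Hnrnpa1 stretch held 4 CCAAT and 2 GC box matches. Sf1 held 2 CCAAT matches, 1 GC box and 2 overlapping NRF1 matches. Prpf40b and Srsf2 held 5 GC box matches and 1 CCAAT match each, and Srsf2 was the one of the 5 genes with a TATA box. Sf3b1 held 2 GC box matches and none of the other motifs.

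Peaks were all 700 bp wide, so heights can be set side by side. Relative height is used for levels: the count in a peak divided by the mean count per peak of the same library, so that 1 is the mean peak. Libraries held 304898 to 1229478 counts in peaks when unconfined and 128257 to 340922 when confined. The median splicing factor peak held 12.5, 47.5 and 45.5 counts without confinement (libraries 1 to 3, the order kept throughout) and 9, 4 and 2 counts with it. A confined value of a single peak therefore rests on few counts. Of the marker genes of LT-HSCs and their precursor gate, Fgd5, Hlf, Kit and Procr had a peak at an end, with highest heights of 0.486 to 1.63 in unconfined and 0.374 to 1.30 in confined libraries, while Ly6a, Slamf1, Mecom, Gata2 and Hoxa9 had none. Cd34 and Flt3, whose proteins the sort excludes, also had one. Their heights were 1.23 and 0.832 in unconfined and 0.996 and 1.245 in confined libraries. Of 4 T cell genes none had a peak, while 1 of 4 B cell, 2 of 6 myeloid and 1 of 4 erythroid genes did, with heights of 0.382 to 0.556 in unconfined and 0.475 to 1.27 in confined libraries. The part of other cells in the results below was not tested. In bulk ATAC-seq, fewer cells with an open site and less cutting per cell cannot be told apart.

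Confined libraries 2 and 3 stood apart: splicing factor peaks had about the height of an average peak there. The mean relative height of the 68 peaks was 2.13, 2.00 and 2.40 without confinement. With confinement it was 1.37, 0.903 and 1.02. All confined values lay below all unconfined values, and confined library 1 was the closest to them. The other 11205 protein-coding gene-end peaks had mean heights of 1.55, 1.46 and 1.62 in unconfined and 1.17, 0.905 and 0.906 in confined libraries. In both classes confined library 1 was the highest of the confined libraries, and the splicing factor peaks started higher.

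**Figure D1:**
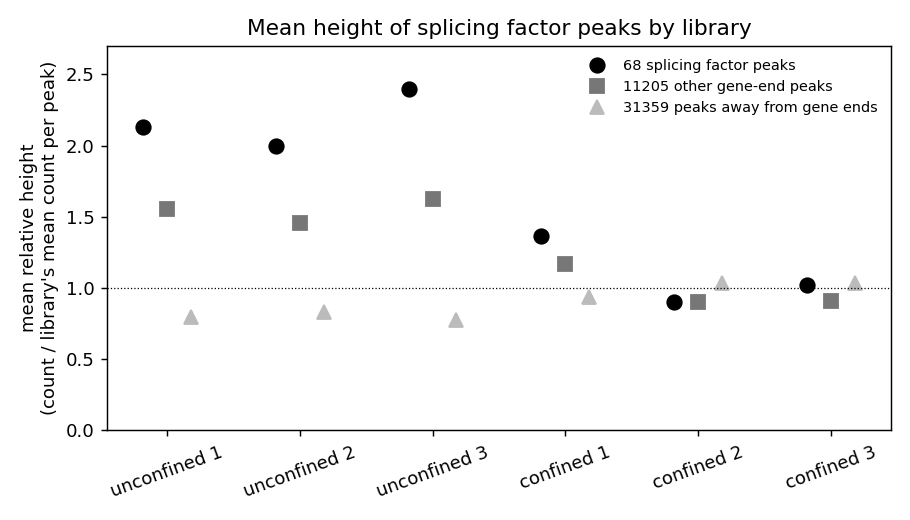
Mean relative height (vertical axis, count in a peak over the library's mean count per peak, dotted line at 1) of 68 splicing factor peaks, 11205 other protein-coding gene-end peaks and 31359 peaks away from gene ends, 1 symbol per class in each of the 6 libraries. Splicing factor peaks sit at 2.00 to 2.40 in unconfined libraries, at 1.37 in confined library 1, and at 0.903 and 1.02 in confined libraries 2 and 3.

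As a share of all counts in peaks, the 68 peaks took 0.340% (95% Clopper-Pearson interval 0.319 to 0.361), 0.319% (0.309 to 0.329) and 0.383% (0.371 to 0.395) without confinement. They took 0.218% (0.203 to 0.234), 0.144% (0.129 to 0.161) and 0.163% (0.142 to 0.187) with it. They make up 0.160% of all peaks, a value inside the intervals of confined libraries 2 and 3. These intervals cover counting error only. On average the share was 0.347% ± 0.0327 unconfined and 0.175% ± 0.0385 confined (SD, n = 3 each), a ratio of 0.504, against 0.643 for the other gene-end peaks. The difference was -0.172 percentage points, and -0.129 when confined library 1 stood alone for its group. No p is given for this sum, since the genes were chosen with results of these data known.

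Heights within the set differed widely in unconfined cells and little in confined cells. Unconfined means ran from 0.490 at the 3′ end of Snrpc, which encodes a U1 snRNP protein, to 9.30 at Sf1, with a median of 1.83 and an SD over peaks of 1.60. In confined cells they ran from 0.356 at Hnrnpm to 2.57 at Hnrnpc, with a median of 0.983 and an SD of 0.466. Peaks above a height of 2 numbered 29 of 68 in unconfined and 5 of 68 in confined cells. The mean height was lower in confined cells at 57 peaks and higher at 11, and the median of the unconfined heights lay at percentile 72.4 of the other gene-end peaks. Median heights of those other gene-end peaks were 1.17 unconfined and 0.947 confined. Peaks away from gene ends had medians of 0.606 and 0.963, so all classes were closer together in confined cells. The spread over other peaks is not given, and the narrowing is not read as particular to this set. Many sites are shared: 26 of the 68 peaks (38.2%) also lay within 1 kb of an end of another protein-coding gene, against 14.2% of the other gene-end peaks. Among them are the peaks of Hnrnpm (with Marchf2), Hnrnpc (Rpgrip1), Hnrnpul2 (Ttc9c), Srsf7 (Gemin6), Snrpa (BC024978), Sf3a2 (Plekhj1) and U2af2 (Epn1). The 3′ peak of Sf3b2 is shared with Pacs1. Values of shared peaks cannot be assigned to 1 gene.

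**Figure D2:**
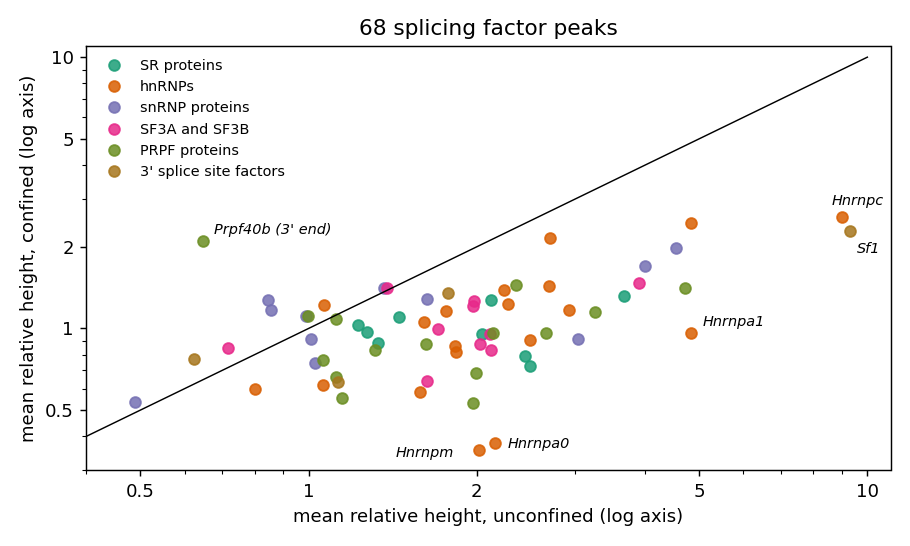
Each point is 1 of 68 splicing factor peaks, with its mean relative height over 3 unconfined libraries (horizontal log axis) and 3 confined libraries (vertical log axis), coloured by family; the line marks equal heights. Unconfined heights span 0.490 to 9.30 and confined heights 0.356 to 2.57, with 57 peaks below the line.

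Mean heights of all 6 families were lower in confined cells. The 4 factors of the 3′ splice site and branch point had a mean height of 3.21 ± 0.694 in unconfined and 1.26 ± 0.267 in confined libraries, which rests largely on Sf1. The 19 hnRNP peaks had 2.62 ± 0.278 and 1.15 ± 0.331, and the 9 SR protein peaks 2.00 ± 0.217 and 1.01 ± 0.172. The 10 SF3A and SF3B peaks had 1.95 ± 0.272 and 1.05 ± 0.323, the 15 PRPF peaks 1.87 ± 0.196 and 1.01 ± 0.313, and the 11 snRNP protein peaks 1.80 ± 0.132 and 1.18 ± 0.121 (SD, n = 3 each). In none of the 6 families did the values of the confined libraries overlap those of the unconfined ones. The other 11205 gene-end peaks were separated in the same way, at 1.46 to 1.62 against 0.905 to 1.17. The separation is therefore not read as particular to these families. Differences between families were not tested.

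**Figure D3:**
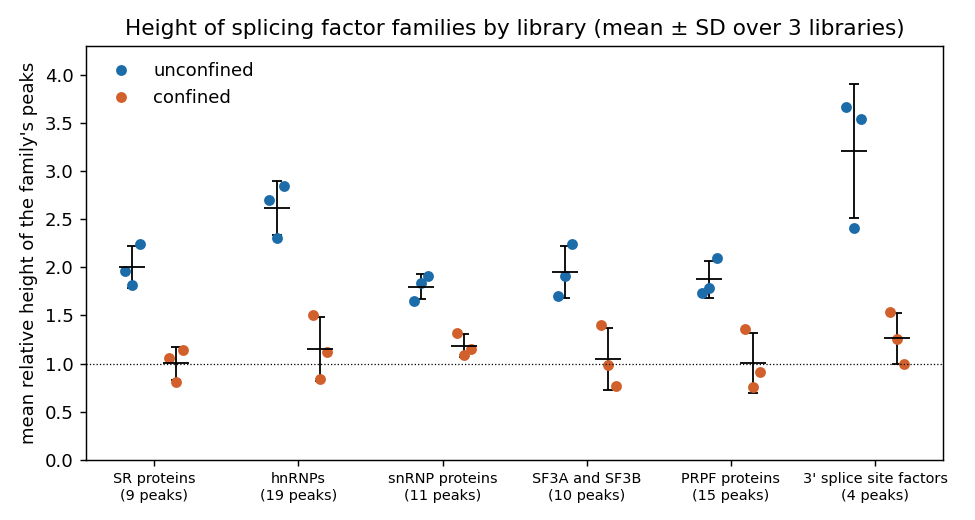
Mean relative height of the peaks of each family (vertical axis) in 3 unconfined and 3 confined libraries; points are libraries, bars the mean ± SD. In each family all 3 confined points lie below all 3 unconfined points, with the widest gap for the 3′ splice site factors (3.21 against 1.26). The same separation holds for the other gene-end peaks, which are not drawn here.

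Single peaks were then compared in a fit over all 9084 peaks that passed a filter on low counts. The levels given with it are CPM (counts scaled to library size) after TMM scaling, which sets the bulk of tested peaks equal between libraries, and a log2 ratio is the fitted log2 fold change, confined over unconfined. Of the 68 peaks, 46 at 44 genes were tested. The peak between Hnrnpa1 and its neighbour Cbx5 fell, and the peak at the 3′ end of Prpf40b rose (two-sided quasi-likelihood test of edgeR, p adjusted over all tested peaks by Benjamini-Hochberg and under 0.05). Lower calls were thus 1 of 46 splicing factor peaks, against 2.42% of all tested peaks, and higher calls 1 of 46, against 5.79%. Among tested gene-end peaks, 3.77% were lower and 1.08% higher, and 1 in 46 is 2.17%; with 1 peak in each direction nothing is read from these shares. At an unadjusted p under 0.05, 9 were lower, against 11.8% of all tested peaks and 17.5% of tested gene-end peaks, and 1 was higher, against 13.3% and 4.25%.

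The estimates were mostly below 0. Of the 46, 32 were negative and the median log2 fold change was -0.44, beside -0.26 over all 4636 tested gene-end peaks, of which 67.0% were negative, and -0.02 over all tested peaks. It was -0.92 without unconfined library 1 (gene-end peaks -0.63) and -0.68 without unconfined library 2 (gene-end peaks -0.42). Confined values lay below all unconfined values at 13 of the 46 peaks, against a background of 18.3% of all tested peaks and 26.0% of tested gene-end peaks. They lay above at 1, against a background of 14.1%. The filter asks for about 31.0 CPM in 3 libraries, and 28 of the 46 peaks reached that in all unconfined and at most 1 confined library, while the Prpf40b 3′ peak was the only one to reach it in all confined and at most 1 unconfined library. With no filter, 63 of 68 estimates were negative and the median was -0.96, beside -0.58 for gene-end peaks.

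**Figure D4:**
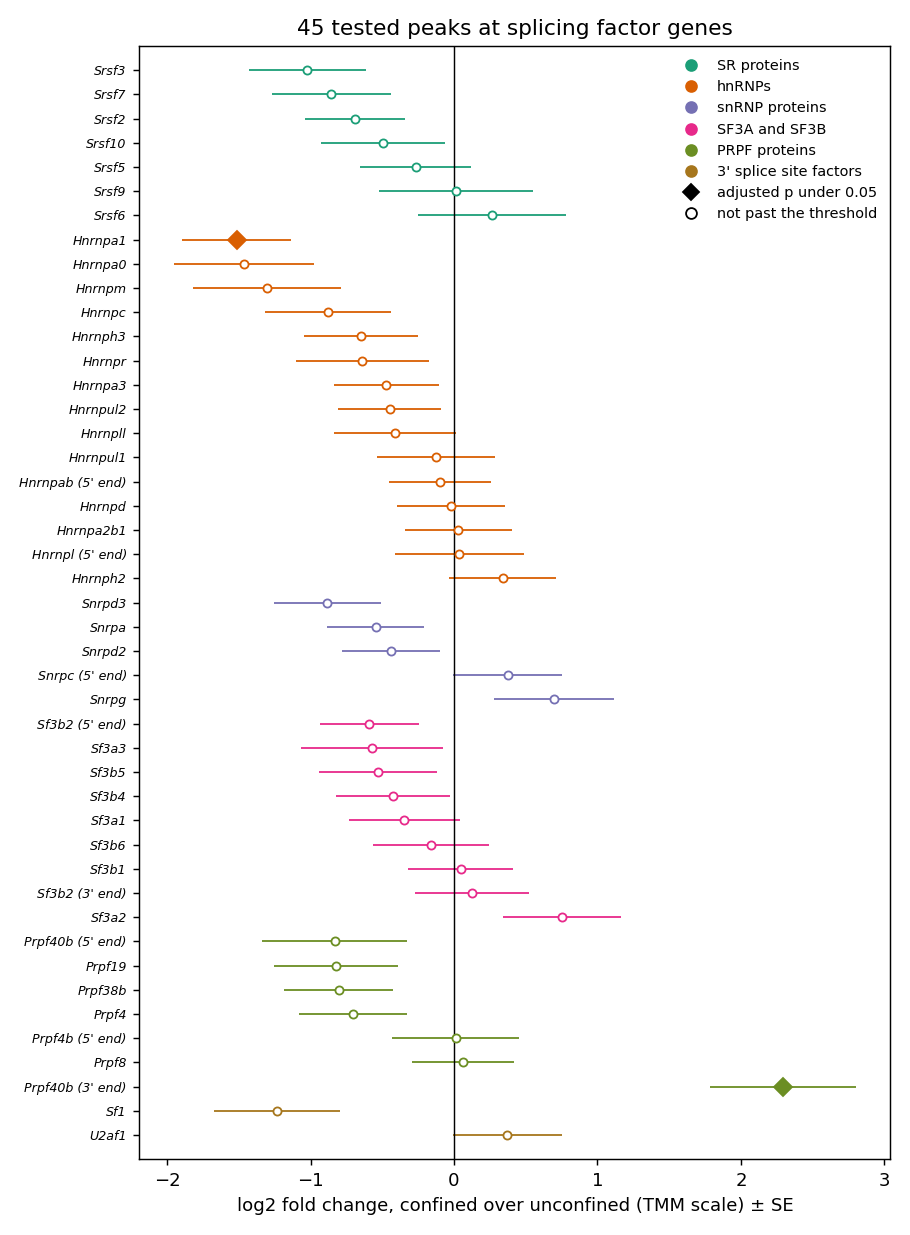
Log2 fold change, confined over unconfined, on the TMM scale with its SE (horizontal axis) for 45 of the 46 tested splicing factor peaks, grouped and coloured by family. Filled diamonds mark the peaks past the threshold, Hnrnpa1 at -1.52 and the Prpf40b 3′ end at 2.29; 31 of the 45 estimates drawn are negative.

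How many splicing factor peaks passed depended on the setting, more in the lower than in the higher direction. When libraries were scaled by total counts in peaks alone, the median over all tested peaks went from -0.02 to -0.68, and 21 splicing factor peaks were lower and 1 was higher, against a background of 25.2% lower. With no filter, 15 of 68 were lower (background 4.27%). Without unconfined library 1, 7 of 52 were lower (background 4.79%). Without confined library 1, 8 of 49 were (background 7.42%), and without confined library 3, 3 of 53 were (background 4.31%). With DESeq2, 2 of 46 were lower, Hnrnpa1 and Sf1 (background 0.826%). These backgrounds are over all tested peaks and for lower calls only. Shares of higher calls and of gene-end peaks are not given for these settings. Gene-end peaks were lower as a class. Their median was -0.58 with no filter and -0.92 with total counts, against 0.12 and -0.68 over all tested peaks. The counts are therefore not read as particular to splicing factor genes. With confined library 1 alone in its group, none of 67 passed in edgeR (backgrounds 0.0185% lower and 0.00793% higher). At an unadjusted p under 0.05, 23 of the 67 were then lower, against 8.54% of all peaks in that fit and 19.5% of gene-end peaks, and 1 was higher, against 3.07% and 1.23%. The median was then -0.81, beside -0.52 for gene-end peaks.

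Among the hnRNPs, which coat nascent transcripts, the Hnrnpa1 peak fell. HNRNPA1 is an abundant repressor of exon inclusion. The peak (chr15:103239643-103240342) is centred 49 bp from the annotated 5′ end of Hnrnpa1 (103239943 to 103246698) and also lies at the end of Cbx5, which encodes the heterochromatin protein HP1 alpha, so its value cannot be assigned to 1 of these genes. It held 38, 117 and 119 counts without confinement and 10, 5 and 2 with it. In CPM these were 255, 222 and 243 against 83.4, 92.8 and 62.9. The groups were far apart, and confined library 3 was the lowest. The fall was from 240 ± 16.8 to 79.7 ± 15.3 CPM (SD, n = 3 each), a log2 ratio of -1.52 (SE 0.38, edgeR adjusted p = 0.00970). It was called in 11 of 12 alternatives, with -1.53 to -2.43 over all 12. The exception was confined library 1 alone, at -2.14 (edgeR adjusted p = 0.122). The peak entered the fit through the unconfined libraries, since on the filter's scale no confined library reached the limit. With confined values that low, it was tested only because its unconfined values were high. Entry of this kind favours estimates in this direction. With no filter the log2 ratio was -2.43 (edgeR adjusted p = 0.00977).

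The related pair Hnrnpa2b1 and Cbx3, the gene of HP1 gamma, has the same arrangement and gave another picture. That peak held 128, 156 and 123 CPM in unconfined and 75.0, 130 and 377 CPM in confined libraries, with a log2 ratio of 0.03 (SE 0.37, edgeR adjusted p = 0.975). Confined library 3 alone was high, from 12 counts, and the groups overlapped. The difference between the pairs was not tested.

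Other hnRNP peaks had low confined values without passing. Hnrnpa0, an AU-rich element binding protein gene, held 108, 118 and 98.0 CPM in unconfined and 50.0, 37.1 and 0 CPM in confined libraries (log2 ratio -1.47, SE 0.49, edgeR adjusted p = 0.0517). The call was made in 5 of 11 alternatives, total counts as the only scaling and the fits without unconfined library 1, confined library 1 or confined library 3 among them. Hnrnpm held 114, 89.3 and 96.0 against 58.4, 18.6 and 0 CPM (-1.30, SE 0.51, edgeR adjusted p = 0.101). It was called in 4 of 11 alternatives, among them without confined library 1, at -3.11 (edgeR adjusted p = 0.0210), and without unconfined library 1, at -1.73 (0.0247). In both genes, all confined libraries lay below all unconfined ones; a count of 0 in confined library 3 allows up to 3 counts, or 94.3 CPM, which is above the lowest unconfined value of Hnrnpm. Hnrnpc, which binds uridine tracts and had the second tallest peak of the set, held 484, 405 and 451 CPM in unconfined libraries. In confined libraries it held 383, 92.8 and 94.3 CPM, so library 1 stayed near the unconfined values (log2 ratio -0.87, SE 0.44, edgeR adjusted p = 0.205). Without confined library 1 it was called, at -2.36 (edgeR adjusted p = 8.73e-04). Hnrnpul2, a relative of the scaffold protein HNRNPU, held 242 ± 59.2 and 207 ± 128 CPM (-0.45, SE 0.36, edgeR adjusted p = 0.460). The remaining hnRNP estimates lay between -0.65 at Hnrnph3 and 0.34 at Hnrnph2. Of the 15 tested hnRNP peaks 12 were below 0, with a median of -0.45.

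**Figure D5:**
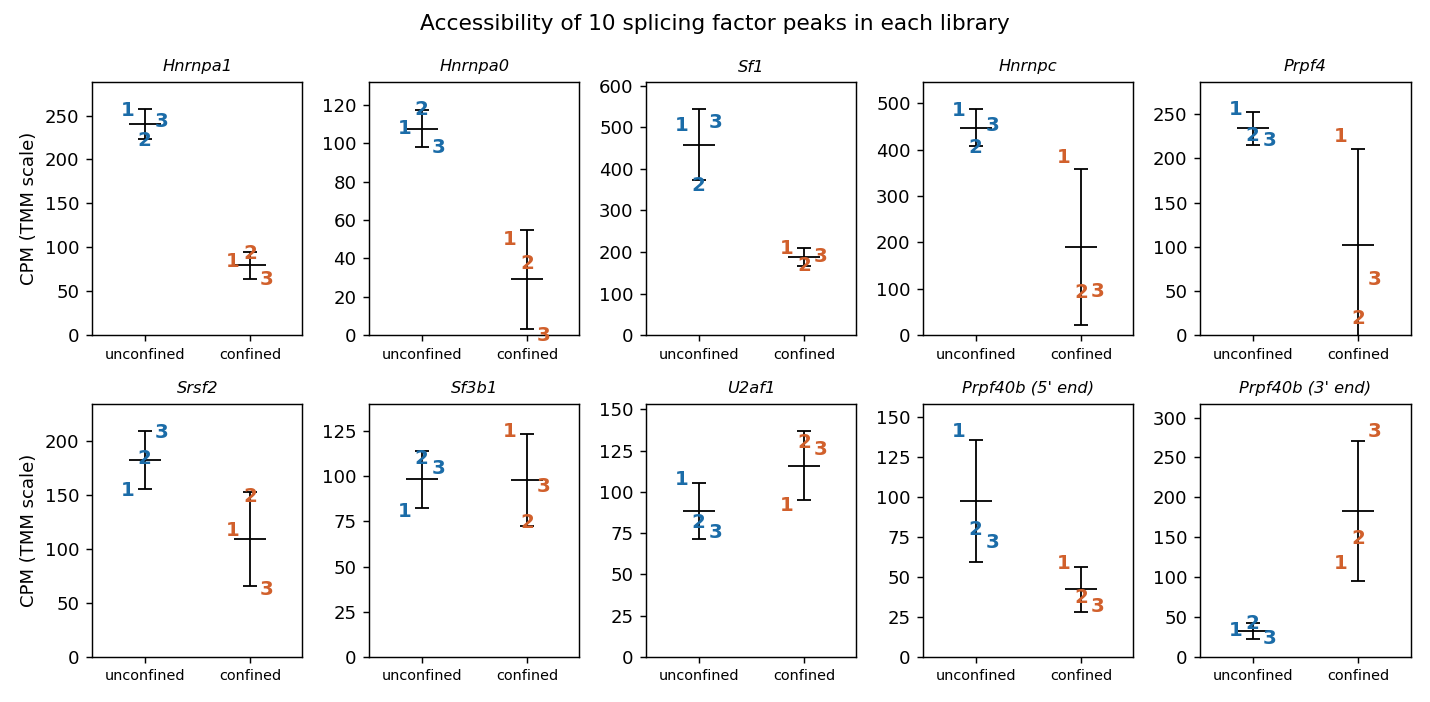
CPM on the TMM scale (vertical axes from 0, each panel with its own range) of 10 splicing factor peaks; digits are the library numbers, bars the mean ± SD over 3 libraries, cut at 0. Hnrnpa1 and Sf1 show separate groups, Hnrnpc and Prpf4 a confined library 1 close to the unconfined values, and the ends of Prpf40b estimates of opposite sign.

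Among the SR proteins, which bind exonic enhancers, none of 7 tested peaks passed in edgeR or DESeq2. At an unadjusted p under 0.05 in edgeR, 2 (Srsf3 and Srsf7) were lower, against 11.8% of all tested peaks and 17.5% of tested gene-end peaks. Nothing is read from family counts this small. Srsf3, a small SR protein gene, held 108, 139 and 127 CPM in unconfined and 75.0, 37.1 and 62.9 CPM in confined libraries (log2 ratio -1.02, SE 0.41, edgeR adjusted p = 0.104). Without unconfined library 1 it was called, at -1.55 (edgeR adjusted p = 0.0247). Srsf7 held 121 ± 18.2 and 68.6 ± 22.0 CPM (-0.85, SE 0.42, edgeR adjusted p = 0.189). At Srsf2, the counts were 23, 97 and 102 without confinement and 14, 8 and 2 with it. In CPM these are 155, 184 and 208 against 117, 149 and 62.9, separate groups with a small gap (log2 ratio -0.69, SE 0.35, edgeR adjusted p = 0.208). Total counts as the only scaling moved it past the threshold at -1.36 (edgeR adjusted p = 0.0233). Srsf5 held 106 ± 21.8 and 109 ± 70.1 CPM, and Srsf9 and Srsf6 had estimates of 0.01 and 0.26. The median of the 7 was -0.49.

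For the factors that first read the end of an intron, Sf1 had the tallest peak of the set. SF1 binds the branch point before U2 snRNP does. Its peak (chr19:6363293-6363992), which also lies at the end of the noncoding RNA gene Gm14966, held 75, 190 and 250 counts without confinement and 25, 9 and 6 with it. In CPM these were 504, 361 and 511 against 208, 167 and 189, and the groups did not overlap. The log2 ratio of -1.23 (SE 0.44) missed the threshold (edgeR adjusted p = 0.0676), and it passed in 5 of 12 alternatives, DESeq2 among them (adjusted p = 0.0296). U2af1, which reads the terminal AG of the intron, held 108, 81.7 and 75.6 CPM in unconfined and 91.7, 130 and 126 in confined libraries, overlapping groups with an estimate of 0.37 (SE 0.38, edgeR adjusted p = 0.583). With total counts as the only scaling its estimate turned to -0.29. The peaks of U2af2, which binds the polypyrimidine tract, and Zrsr1, a retrogene inside Commd1, were not tested. U2af2 held 10, 21 and 29 against 8, 3 and 1 counts, and Zrsr1 4, 24 and 11 against 5, 7 and 1. Zrsr2, which is outside the rule, also had an untested peak, with 7, 34 and 42 against 9, 5 and 6 counts. Heights of the Zrsr2 peak were 1.33 in unconfined and 1.36 in confined cells.

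In the U2 particle, none of 9 tested SF3A and SF3B peaks passed in edgeR or DESeq2. At an unadjusted p under 0.05 in edgeR, 0 were lower or higher, against 17.5% of tested gene-end peaks lower and 4.25% higher. Sf3b1 encodes the subunit that clamps the branch point helix. Its peak (chr1:55027047-55027746, centred 82 bp downstream of the start site) held 12, 58 and 51 counts without confinement and 15, 4 and 3 with it. In CPM these were 80.7, 110 and 104 against 125, 74.3 and 94.3, with overlapping groups and means of 98.3 ± 15.6 and 97.9 ± 25.6 (log2 ratio 0.05, SE 0.36, edgeR adjusted p = 0.959). That estimate is relative to the TMM scale and was -0.60 with total counts as the only scaling, where it did not pass either (edgeR adjusted p = 0.249). With 1 library left out it was between -0.50 and -0.022. Sf3b2 had the tallest peak of the group at its 5′ end, with 195 ± 29.3 and 115 ± 53.4 CPM (-0.59, SE 0.34, edgeR adjusted p = 0.281), and a second peak at its 3′ end with an estimate of 0.13. Without confined library 1 the 5′ peak was called, at -1.43 (edgeR adjusted p = 0.0364), and likewise with total counts as the only scaling, at -1.26 (0.0356). Sf3a2 had the highest estimate, 0.75 (SE 0.41, edgeR adjusted p = 0.247), carried by confined library 2 at 241 CPM, while libraries 1 and 3 held 91.7 and 31.4 CPM; without library 2 its estimate was -0.11. Sf3b6, a branch point contact, held 100.0 ± 47.9 and 104 ± 61.1 CPM.

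Core snRNP proteins gave estimates on both sides of 0, and none of 5 tested peaks passed in edgeR or DESeq2. At an unadjusted p under 0.05 in edgeR, 1 (Snrpd3) was lower, against 11.8% of all tested peaks and 17.5% of tested gene-end peaks. Snrpd3, an Sm ring protein gene whose peak is shared with Gucd1, held 148, 150 and 155 CPM in unconfined and 100, 55.7 and 62.9 CPM in confined libraries (log2 ratio -0.88, SE 0.37, edgeR adjusted p = 0.126). The unconfined values were nearly equal and the groups were separate. It was called in 4 of 12 alternatives: without confined library 1 at -1.50 (edgeR adjusted p = 0.0483), without unconfined library 1 at -1.38 (0.0389), with no filter at -1.78 (0.0255) and with total counts at -1.55 (0.0123). Snrpd2, the tallest of the family and shared with Qpctl, held 227 ± 58.2 and 158 ± 51.4 CPM (-0.44, edgeR adjusted p = 0.447), and Snrpa, the gene of another U1 protein, 199 ± 20.2 and 145 ± 38.3 CPM (-0.55, edgeR adjusted p = 0.312). Snrpd2 had -1.03 without confined library 1 and -1.10 without unconfined library 1, and did not pass. Snrpa was called with total counts as the only scaling, at -1.23 (edgeR adjusted p = 0.0366). Snrpc and Snrpg had estimates of 0.37 and 0.70, and at Snrpg 13 of the confined counts came from library 2, with 11 and 1 in libraries 1 and 3; without library 2 its estimate was -0.16. Of the 11 peaks of this family, 6 had too few counts to be tested.

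PRPF genes held the peak that rose. PRPF40B is a U1-associated protein of the PRP40 family. The peak at its 3′ end (chr15:99316730-99317429) is centred 61 bp from that end and also lies within 1 kb of an end of the formin gene Fmnl3. It is 13795 bp downstream of the nearest Prpf40b start in the promoter table. That start lies inside the gene and is not the one whose upstream bases are shown above. It held 5, 22 and 11 counts without confinement and 14, 8 and 9 with it, or 33.6, 41.8 and 22.5 against 117, 149 and 283 CPM. All confined libraries lay above all unconfined ones, and confined library 3 was the highest. The rise from 32.6 ± 9.70 to 183 ± 88.2 CPM had a log2 ratio of 2.29 (SE 0.51, edgeR adjusted p = 0.00360). This peak entered the fit through the confined libraries, since on the filter's scale no unconfined library reached the limit. With unconfined values that low, it was tested only because its confined values were high. Entry of this kind favours estimates in this direction. With no filter the log2 ratio was 1.39 (edgeR adjusted p = 0.0354). It was called in 11 of 12 alternatives, except with confined library 1 alone, at 1.23 (edgeR adjusted p = 0.333).

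At the 5′ end of the same gene the estimate was negative. That peak (chr15:99294764-99295463) covers the start site and held 141, 79.8 and 71.5 CPM in unconfined and 58.4, 37.1 and 31.4 CPM in confined libraries (log2 ratio -0.83, SE 0.50, edgeR adjusted p = 0.300). Its groups were separate but it did not pass. The difference between the ends was not tested.

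The other 6 tested PRPF peaks had estimates of -0.82 (Prpf19) to 0.06 (Prpf8). Prpf4, a U4/U6 protein gene whose peak is shared with Cdc26, held 255, 226 and 221 CPM in unconfined and 225, 18.6 and 62.9 CPM in confined libraries. As at Hnrnpc, confined library 1 stayed high (log2 ratio -0.71, SE 0.38, edgeR adjusted p = 0.235), and without it the peak was called, at -2.82 (edgeR adjusted p = 0.00145). Prpf8, the scaffold of the catalytic centre, held 80.7, 150 and 125 against 183, 55.7 and 94.3 CPM, overlapping groups with an estimate of 0.06 (SE 0.36, edgeR adjusted p = 0.939). With total counts as the only scaling that estimate was -0.58, and without confined library 1 it was -0.99. Of the 15 PRPF peaks, 7 had too few counts to be tested.

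Of the 70 genes, 18 had a peak but none that was tested, and 8 had no peak within 1 kb: Srsf1, Srsf12, Hnrnph1, Hnrnpk, Hnrnpu, Hnrnpa1l2-ps2, Snrpe and Snrpn. Of these, 3 had a peak just beyond the limit. Hnrnpk, a nucleic acid binding protein with KH domains, had one 1065 bp from an end with heights of 3.10 and 1.65 in unconfined and confined cells (log2 ratio 0.02, edgeR adjusted p = 0.988). Hnrnpu had one at 1124 bp, with 1.55 and 0.359 (-1.16, edgeR adjusted p = 0.214), and Srsf1 one at 1315 bp, which was not tested, with 1.25 and 0.881. Just inside the limit, the most distant peak of the set was at Prpf4b, 862 bp from the gene end, with heights of 1.15 and 0.555.

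Other genes of the pathway were read from a list of 110 genes that holds further parts of the snRNPs, the catalytic complexes, the exon junction complex, regulators and kinases; 109 matched and 102 had a peak. Of their 66 tested peaks, 1 fell and none rose in edgeR, against backgrounds of 2.42% and 5.79%. At an unadjusted p under 0.05, 9 were lower, against 11.8% of all tested peaks and 17.5% of tested gene-end peaks. By the same measure 1 was higher, against 13.3% and 4.25%. DESeq2 called none higher and 1 lower, against a background of 0.826% lower. The lower one was Khsrp, an RNA-binding regulator gene (log2 ratio -1.23, DESeq2 adjusted p = 0.0321, edgeR adjusted p = 0.178). The median log2 fold change was -0.29. The peak that fell was at Acin1, which encodes a partner of the exon junction complex, whose level was 315 ± 47.2 CPM without and 93.0 ± 86.4 CPM with confinement (n = 3 each, SD) and whose log2 ratio was -1.29 (SE 0.40, edgeR adjusted p = 0.0376). Without confined library 1 it was -2.84. With the replicate block the Acin1 call was lost (edgeR adjusted p = 0.0552), as it was with DESeq2 (adjusted p = 0.0759), without confined library 2 (edgeR adjusted p = 0.109), without unconfined library 3 (0.0897) and with confined library 1 alone (0.296). Catalytic complex genes had a median of 0.17 over 20 tested peaks and commitment factors one of -0.62 over 15; that difference was not tested.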

How the data were processed

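The authors deposited a table of raw counts per peak for 6 libraries and a list of 42632 peaks, all 700 bp wide. Per the submitters' processing notes, featureCounts, SAMtools 1.14, R 4.2.0 and the mm10 build were used; for the aligner, the peak caller, duplicate removal, the shift of reads and which libraries peaks were called on, the entry is: not given in the sources used here. The deposited peak list gives start and end, used as coordinates.

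The counts entered edgeR 4.0.16 under R 4.3.3: filterByExpr, TMM scaling, then glmQLFit with group alone in the model and glmQLFTest, fitted and Benjamini-Hochberg adjusted over the 9084 peaks that passed the filter. SEs were taken from the fold change and F statistic. DESeq2 1.42.0 was an alternative. Intervals are exact binomial (SciPy 1.17.1, Python 3.11.15). The fit was tested on simulated data. Gene ends, names and promoter sequences come from RefSeq tables of GRCm38.p6, the assembly of mm10, which matched all 70 genes for ends and 61 for promoters.

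The genes and lists were chosen with earlier results of these data known, and 7 Snrnp genes joined the pathway list after the files were seen. Peaks named are those past the threshold, the 3 tallest of each family by mean CPM, the 5 lowest p values in either direction, and those of Sf3b1, Srsf2, U2af1, U2af2, Zrsr1, Sf1 and Prpf8; others were named afterwards. A named peak and a marker gene are not reported here. Labels give each library an experimental batch number shared by 1 library of each group. Across tested peaks, deviations from the group mean correlated at r = -0.00834, 0.0161 and -0.0674 for pairs 1, 2 and 3, so the pairing rests on the labels.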

Additional observations from a re-analysis of the deposited data

How the results depend on the processing

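The Hnrnpa1 and Prpf40b calls held in 11 of 12 alternatives each. With the replicate block, 1 splicing factor peak was higher and 1 lower, as without it, and the median was -0.41. Shares over all tested peaks are not given for that fit. Among other spliceosome genes 0 were lower, the Acin1 call being lost, and no other named call changed. Counts of lower splicing factor peaks were 2 with DESeq2, 15 with no filter, 21 with total counts as the only scaling, and 1 to 8 with 1 library left out. Other spliceosome genes gave 18 of 112 lower with no filter and 25 of 66 with total counts. All tested peaks gave 4.27% and 25.2% lower in these 2 settings. With 1 library left out, other spliceosome genes gave 0 to 8 lower and 0 to 1 higher. The 8 were of 72 tested without confined library 1, against a background of 7.42%. The fits with no filter, confined library 1 only or 1 library left out tested other sets of peaks, and a library alone in its group is assumed to vary like the other group. The median log2 fold change was -0.96 with no filter, -1.09 with total counts, -0.81 with confined library 1 only and -0.49 to -0.92 with 1 library left out. The share difference was -0.129 percentage points with confined library 1 only. The cause of these shifts was not tested.

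Positive estimates of 0.05 (Sf3b1) to 0.75 (Sf3a2), and the negative one of Sf3b6, changed sign in some alternatives; none of these passed in any. With confined library 1 only, Sf3b1, Prpf8, U2af1, Sf3a2, Snrpg and the 5′ peak of Snrpc gave -0.32, -0.061, -0.49, -0.27, -0.30 and -0.10. With no filter these gave -0.81, -0.79, -0.52, -0.11, -0.12 and -0.48. With total counts, Sf3b1, Prpf8, U2af1 and Snrpc gave -0.60, -0.58, -0.29 and -0.27, and with the filter on mean log2 CPM, Sf3b1 and Prpf8 gave -0.027 and -0.0088. Sf3b6 gave 0.12 with the replicate block. With 1 library left out, Sf3b1 ranged from -0.50 to -0.022, Prpf8 from -0.99 to 0.13, U2af1 from -0.034 to 0.50, Sf3a2 from -0.11 to 1.03, Snrpg from -0.16 to 0.97 and Snrpc from -0.11 to 0.33. Gene-end distances of 0.5 and 2 kb left counts, median and share within the limits set. The few counts per peak in confined libraries 2 and 3 limit all single-peak values.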
